A study of Mus musculus with 18 samples.

Results

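The antiviral effectors described here are 10 mouse genes that type I interferon is known to induce: Ifit1, Ifit2, Ifit3, Ifit3b, Isg15, Isg20, Usp18, Rsad2, Irf7 and Ifitm3. They were taken by gene symbol from the 41079 genes of the expression table. All 10 were present, and all 10 were among the 12357 genes that were tested, whose mean over the 18 tumors was 1 FPKM or more. FPKM counts the sequenced fragments of a gene in proportion to its length and to all fragments assigned to genes in the tumor. The study addressed whether a Pistol ribozyme against PD-L1, carried by a manganese framework, alters the tumor and its immune response. B16F10 mouse melanoma cells were grown under the skin of female C57BL/6 mice, and from day 6, at a tumor volume of about 50 mm3, the tumors were injected every 2 days. Whole tumors were taken 48 h after the last injection for poly(A) RNA sequencing. There were 6 groups of 3 tumors. PBS tumors received buffer, and Free PS473 tumors received the naked ribozyme, which cleaves the mRNA of PD-L1. PS473@CPs tumors received it with cationic polymers. NKMOF-101-[Mn] tumors received the empty manganese framework, M5@NKMOF-101-[Mn] tumors the framework with M5, a catalytically inactive ribozyme, and PS473@NKMOF-101-[Mn] tumors the framework with PS473. The sample titles of the last group name NKMOF-102, whereas the protocol and the design text name NKMOF-101, and the group is called by the latter. All groups share the cell line, the strain and the injections into the tumor. A transplanted tumor of 1 cell line stands for melanoma here, and ages of the mice were not given.

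Type I interferons bind a receptor that, through the kinases JAK1 and TYK2, activates the factor ISGF3, which binds interferon-stimulated response elements in promoters. IFIT proteins bind viral RNA and hinder its translation, ISG15 is a ubiquitin-like protein that is attached to other proteins, and USP18 removes it again and dampens signaling at the interferon receptor. RSAD2 (viperin) makes a nucleotide that ends viral RNA synthesis, ISG20 is an exonuclease for RNA, IFITM3 blocks the entry of viruses from endosomes, and IRF7 is the factor that amplifies interferon production. In tumors these genes are widely read as a sign of interferon exposure, in tumor cells as well as in infiltrating cells.

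The promoters are shown first, since the members were chosen as interferon-induced genes and the response element can be read from the sequence. The core of the element was searched as GAAANNGAAA on both strands, in windows from 250 bases before to 50 bases after the gene start, with RefSeq sequences of build GRCm38.p6. The motif was found in 1131 of the 32851 windows (3.44%). Of the members, 9 had a window, and 6 of these 9 held the motif: Ifit1, Ifit3, Ifit3b, Isg15, Rsad2 and Ifitm3. No match was found in the windows of Ifit2, Isg20 and Irf7, which says only that these letters are not in those windows. Usp18 had no entry. The following 5 sequences span the positions -200 to -51 relative to the gene start, written 5′ to 3′ on the strand of the gene, with the motif in capitals; on the opposite strand it reads TTTCNNTTTC.
Ifit1 (chr19:34640689-34640838, plus strand): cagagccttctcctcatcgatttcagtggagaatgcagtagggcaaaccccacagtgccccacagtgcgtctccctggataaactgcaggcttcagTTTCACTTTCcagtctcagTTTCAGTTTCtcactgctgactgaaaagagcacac
Ifit3 (chr19:34583329-34583478, plus strand): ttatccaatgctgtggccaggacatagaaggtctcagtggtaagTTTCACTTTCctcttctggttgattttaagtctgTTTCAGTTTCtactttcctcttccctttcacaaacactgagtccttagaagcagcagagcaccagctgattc
Ifit3b (chr19:34607757-34607906, plus strand): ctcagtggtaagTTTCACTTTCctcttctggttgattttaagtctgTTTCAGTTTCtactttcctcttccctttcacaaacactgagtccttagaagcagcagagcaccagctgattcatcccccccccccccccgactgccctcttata
Isg15 (chr4:156200869-156201018, minus strand): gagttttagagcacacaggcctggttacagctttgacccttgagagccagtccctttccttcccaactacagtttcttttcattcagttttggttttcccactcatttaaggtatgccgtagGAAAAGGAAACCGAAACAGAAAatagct
Rsad2 (chr12:26456503-26456652, minus strand): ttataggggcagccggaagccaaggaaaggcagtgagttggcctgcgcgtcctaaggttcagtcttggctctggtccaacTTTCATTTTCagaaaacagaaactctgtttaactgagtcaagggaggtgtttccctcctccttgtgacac

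Ifit1, Ifit3 and Ifit3b each held 2 copies on the opposite strand. The copies of Ifit1 began at -104 and -85. Those of Ifit3 began at -156 and -122, and those of Ifit3b at -188 and -154. Ifit3 and Ifit3b are neighbouring copies of each other, and their upstream sequences were equal at 86.2% of 218 aligned bases, with an offset of 32 bases. Isg15 held 3 overlapping matches on the strand of the gene, which together form the 1 run in capitals. Ifitm3 held 2 matches just after the start, which are not printed. The map of motif positions shows these distances.

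**Figure D1:**
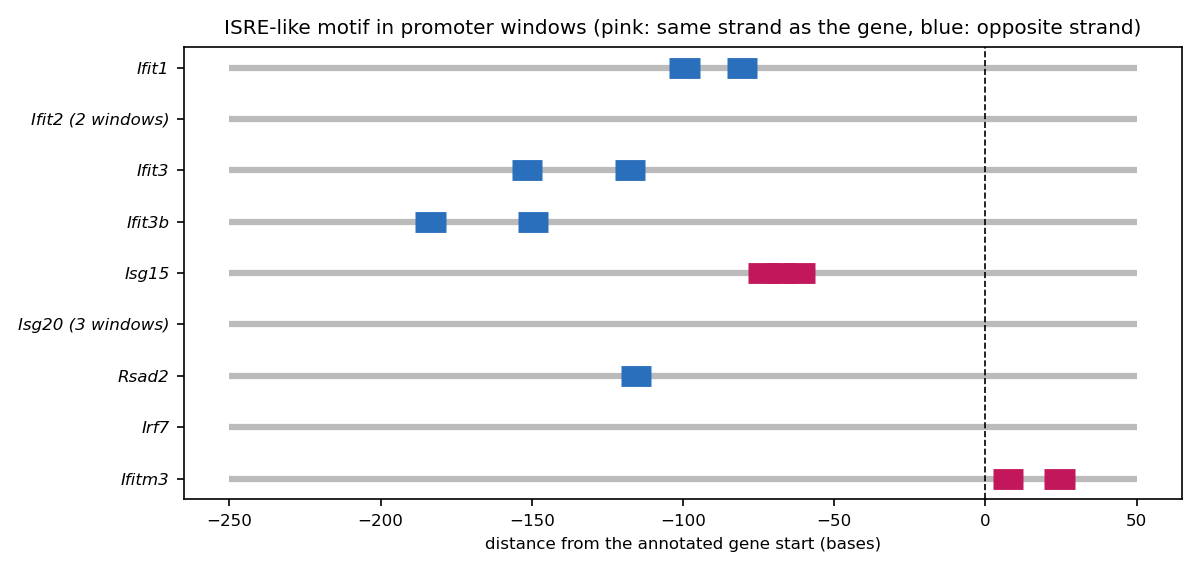
Positions of the motif in the promoter windows of the 9 genes with a window. The horizontal axis is the distance from the annotated gene start in bases, grey lines are the windows, and boxes are matches on the strand of the gene (pink) or the opposite strand (blue). Matches lie before the start in Ifit1, Ifit3, Ifit3b, Isg15 and Rsad2 and after it in Ifitm3.

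In GENCODE M21 (build GRCm38), the 4 Ifit members lie within 99316 bases of the plus strand of chromosome 19 (34550694 to 34650009). The coding sequences of Ifit3 and Ifit3b, 1209 bases each, differ at 11 bases. Of the 50-base windows of Ifit3, 68.5% occur unaltered in Ifit3b, so reads of the 2 genes may have been divided between them by the counting, and their separate levels are uncertain. The ratio of Ifit3b to Ifit3 was between 0.21 and 0.362 in the 18 tumors. Their summed values are given beside the main comparison. The length that the file gives for Isg20, 6083 bases, is 5.6 times its longest annotated transcript here, and that of Ifit3 is 2.64 times. A longer gene length lowers the FPKM of a gene by the same factor in every tumor, so ratios of FPKM between tumors are unaltered. On the log2(FPKM + 1) scale used below it does make differences smaller, most for a low gene such as Isg20, at a mean of 1.64 FPKM.

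The study also read 2 of the members, Isg15 and Isg20, by PCR in RAW264.7 macrophages, which were not analysed here. The primers are shown because they tell which part of each transcript that assay covers.
Isg15 forward: aagcagccagaagcagactc
Isg15 reverse: taagaccgtcctggagcact
Isg20 forward: gccgagaagtggaaacagag
Isg20 reverse: ctcgggtcggatgtacttgt
In GENCODE M21 (build GRCm38), both forward primers match exon 1 outside the coding sequence and both reverse primers match coding sequence in exon 2. The Isg15 pair spans chr4:156199901-156200765 and gives 226 bases of the transcript, and the Isg20 pair spans chr7:78913992-78914484 and gives 214 bases.

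Between 17221000 and 28411000 fragments per tumor were assigned to genes, as recovered from the steps between low values. This assumes that the commonest low value stands for a single fragment, and the fragment numbers given here rest on it. The fragments of a member in a tumor ranged from 45, for Ifit3b, to 7937, for Ifitm3. No pair of tumors held the same values. All 9 melanoma markers were expressed, at 5022 to 7938 FPKM in sum. The sum of 15 skin epithelium markers ranged from 10.4 to 6430 FPKM, with wide ranges within groups. Cd274, which encodes the PD-L1 that PS473 cleaves and is itself induced by interferon, was measured at 12.3 to 21.5 FPKM in PBS, 11.7 to 14.0 in Free PS473 and 11.9 to 24.5 in PS473@CPs tumors. It was at 14.1 to 15.9 FPKM in NKMOF-101-[Mn], 20.98 to 28.2 in M5@NKMOF-101-[Mn] and 9.74 to 32.9 in PS473@NKMOF-101-[Mn] tumors. Those that received PS473 were not separated from the others by it, so it does not check the labels. The tumors are whole pieces, and fewer cells of a type and less RNA per cell cannot be told apart.

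Among the RNA-binding IFIT genes, Ifit3 was measured in the 3 PBS tumors at 7.81, 4.27 and 4.59 FPKM and in the 3 Free PS473 tumors at 3.76, 2.16 and 4.73 FPKM. It was at 5.07, 6.26 and 17.8 FPKM in PS473@CPs and at 6.35, 4.49 and 7.55 FPKM in NKMOF-101-[Mn] tumors. In M5@NKMOF-101-[Mn] tumors it was at 11.3, 8.98 and 9.51 FPKM, and in PS473@NKMOF-101-[Mn] tumors at 8.14, 25.9 and 7.09 FPKM. PS473@NKMOF-101-[Mn] tumor 2 and PS473@CPs tumor 3 stood above every other tumor, and all Free PS473 tumors lay below all PS473@NKMOF-101-[Mn] tumors. Ifit1 gave group means of 6.23 ± 1.23 FPKM (SD, n = 3) in PBS, 4.86 ± 2.81 in Free PS473, 9.08 ± 5.17 in PS473@CPs, 8.79 ± 3.19 in NKMOF-101-[Mn], 9.33 ± 0.364 in M5@NKMOF-101-[Mn] and 13.1 ± 10.5 in PS473@NKMOF-101-[Mn] tumors. The last mean rests on 1 tumor at 25.1 FPKM beside others at 8.06 and 6.12. Ifit3b followed Ifit3 at a lower level, from 0.452 FPKM in Free PS473 tumor 2 to 6.92 FPKM in PS473@NKMOF-101-[Mn] tumor 2. Ifit2 varied least of the 10 genes. It was at 12.2, 8.97 and 10.8 FPKM in PBS, at 10.2, 9.53 and 8.34 in Free PS473 and at 12.2, 18.1 and 11.8 in PS473@NKMOF-101-[Mn] tumors, and the highest of the 18 tumors was 2.17 times the lowest. For Ifit1, Ifit3 and Ifit3b this ratio was 15.1, 12.0 and 15.3.

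Isg15 and its protease Usp18 showed a like picture. Isg15 was measured at 44.9, 19.7 and 20.3 FPKM in PBS, 24.6, 7.41 and 28.0 in Free PS473 and 20.6, 28.0 and 52.2 in PS473@CPs tumors. It was at 26.6, 19.2 and 31.2 FPKM in NKMOF-101-[Mn], 35.4, 31.7 and 32.2 in M5@NKMOF-101-[Mn] and 29.4, 77.2 and 27.0 in PS473@NKMOF-101-[Mn] tumors. The 3 M5@NKMOF-101-[Mn] tumors were close to each other, whereas PBS tumor 1 was more than 2 times as high as the other PBS tumors. All M5@NKMOF-101-[Mn] tumors lay above all Free PS473 and all NKMOF-101-[Mn] tumors, and every other pair of groups overlapped. Usp18 had group means of 7.62 ± 1.90 FPKM (SD, n = 3) in PBS, 4.95 ± 2.14 in Free PS473, 12.3 ± 7.01 in PS473@CPs, 7.95 ± 1.97 in NKMOF-101-[Mn], 12.6 ± 3.49 in M5@NKMOF-101-[Mn] and 16.4 ± 12.0 in PS473@NKMOF-101-[Mn] tumors. Its Free PS473 tumors, at 2.50 to 6.40 FPKM, lay below all PS473@NKMOF-101-[Mn] tumors, at 9.12 to 30.2 FPKM.

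Rsad2, the viperin gene, was at 20.5, 12.8 and 10.7 FPKM in PBS, 16.1, 6.63 and 13.1 in Free PS473 and 16.3, 40.5 and 11.9 in PS473@NKMOF-101-[Mn] tumors. These groups overlapped. Its other group means were 14.6 ± 8.21 FPKM (SD, n = 3) in PS473@CPs, 15.3 ± 5.38 in NKMOF-101-[Mn] and 20.6 ± 1.43 in M5@NKMOF-101-[Mn] tumors. The exonuclease gene Isg20 was the lowest of the members in level per length and had another order. It was at 3.76, 1.60 and 0.905 FPKM in PBS, 2.74, 0.650 and 2.61 in Free PS473 and 0.497, 1.11 and 1.53 in PS473@CPs tumors. It was at 1.25, 0.728 and 1.68 FPKM in NKMOF-101-[Mn], 1.29, 2.46 and 1.82 in M5@NKMOF-101-[Mn] and 2.03, 1.45 and 1.45 in PS473@NKMOF-101-[Mn] tumors. PBS tumor 1 was the highest of all, PS473@NKMOF-101-[Mn] tumor 2 was unremarkable for this gene, and all pairs of groups overlapped.

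The factor gene Irf7 had the widest range, 20.4 times from the lowest to the highest tumor. It was at 11.3, 6.67 and 6.24 FPKM in PBS, 5.08, 1.70 and 6.21 in Free PS473 and 7.49, 16.4 and 28.6 in PS473@CPs tumors. It was at 9.94, 4.89 and 7.45 FPKM in NKMOF-101-[Mn], 12.2, 9.16 and 13.4 in M5@NKMOF-101-[Mn] and 8.61, 34.8 and 10.4 in PS473@NKMOF-101-[Mn] tumors. The Free PS473 tumors were all below the PBS tumors, by a narrow margin, and below the PS473@NKMOF-101-[Mn] tumors. Ifitm3, the endosomal restriction factor, was the most abundant member. It was at 312, 198 and 192 FPKM in PBS, 127, 103 and 176 in Free PS473 and 304, 324 and 431 in PS473@CPs tumors. It was at 207, 193 and 256 FPKM in NKMOF-101-[Mn], 336, 274 and 315 in M5@NKMOF-101-[Mn] and 264, 467 and 248 in PS473@NKMOF-101-[Mn] tumors. The 3 Free PS473 tumors were the 3 lowest of all 18.

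**Figure D2:**
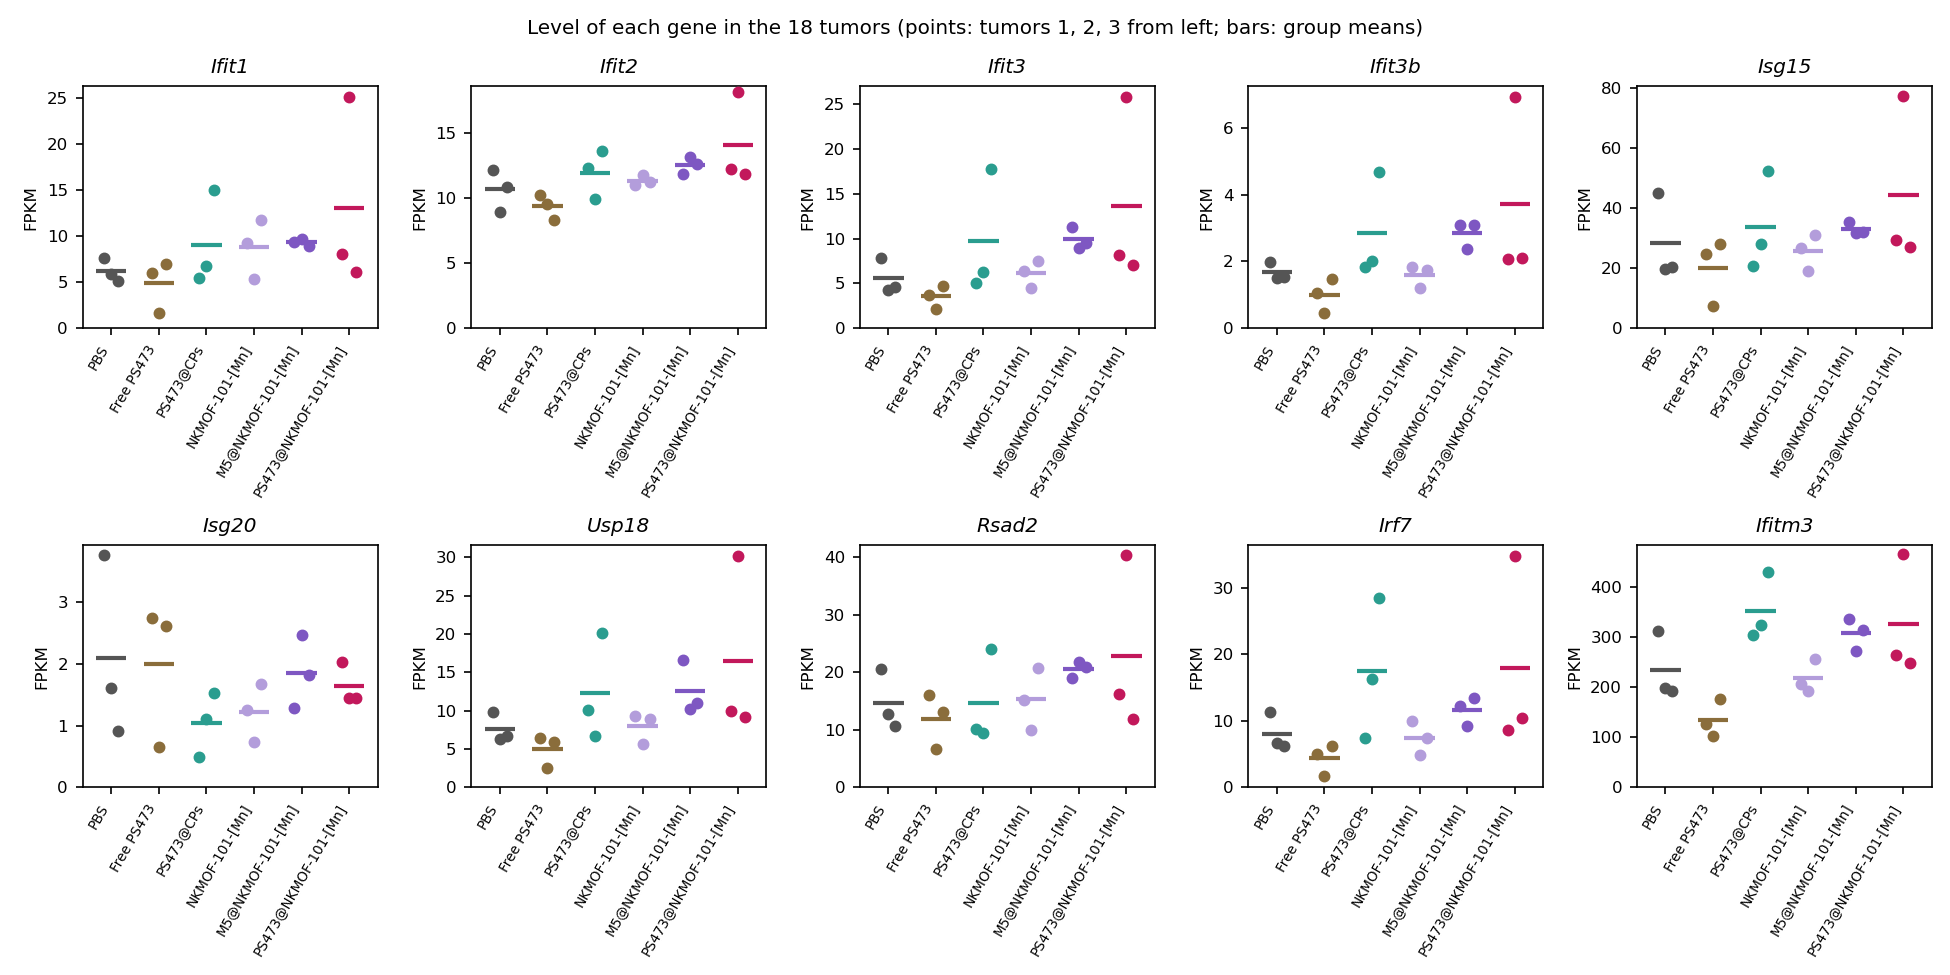
Level of each of the 10 genes in FPKM (vertical axes, linear and from 0) in the 18 tumors, by group. Points are tumors 1, 2 and 3 from left to right and bars are means of 3 tumors; PS473@NKMOF-101-[Mn] tumor 2 is the highest tumor for 9 genes, and Free PS473 tumor 2 is the lowest for 8.

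By group mean on the log2(FPKM + 1) scale, Free PS473 was the lowest of the 6 groups for 9 of the 10 genes, and PS473@CPs was the lowest for Isg20. PS473@NKMOF-101-[Mn] was the highest group for Ifit1, Ifit2, Ifit3, Ifit3b, Isg15 and Usp18, PS473@CPs for Irf7 and Ifitm3, M5@NKMOF-101-[Mn] for Rsad2 and PBS for Isg20. Of the 50 pairs of neighbours in these orders, 45 differed by less than the SD within groups. The others were Free PS473 and PBS for Usp18, Free PS473 and NKMOF-101-[Mn] for Irf7 and Ifitm3, PBS and PS473@CPs for Ifit3b and PBS and M5@NKMOF-101-[Mn] for Ifitm3, and only Free PS473 and NKMOF-101-[Mn] for Ifitm3 did not overlap. The moderated F test of any difference among the 6 groups gave an unadjusted p under 0.05 for 4 members, Ifit3, Ifit3b, Irf7 and Ifitm3, against 1.99% of all genes tested. For Ifitm3 the adjusted p was 1.00 (limma, Benjamini-Hochberg over 12357 genes), and 0 genes (0%) passed an adjusted p of 0.05. In the same fit no member and 0% of the genes tested passed an adjusted p of 0.05 with a difference of more than 2-fold in any of the 11 contrasts described here. Differences below are therefore given as sizes with intervals, and the unadjusted p is used only to count members against the share of all genes. Each interval and p rests on 1 spread per gene shared by the 6 groups, although spreads were unequal. For Ifit1 the SD was 0.364 FPKM in M5@NKMOF-101-[Mn] and 10.5 FPKM in PS473@NKMOF-101-[Mn] tumors. Intervals can thus be too wide for an even group and too narrow for an uneven one.

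The members moved together from tumor to tumor, apart from Isg20. Over the 18 tumors, the 36 pairs of the other 9 genes had Pearson correlations of log2(FPKM + 1) from 0.670 to 0.979, with a median of 0.892. The 9 pairs with Isg20 had a median of 0.195 and none above 0.533. After the group means were subtracted the medians were 0.895 and 0.545. Without the 2 tumors farthest from the median of the members' mean level they were 0.751 and 0.035. The closest pair was Ifit3 and Ifit3b, whose reads may be shared. These are descriptions over 18 tumors that share depth and tissue composition within a library.

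**Figure D3:**
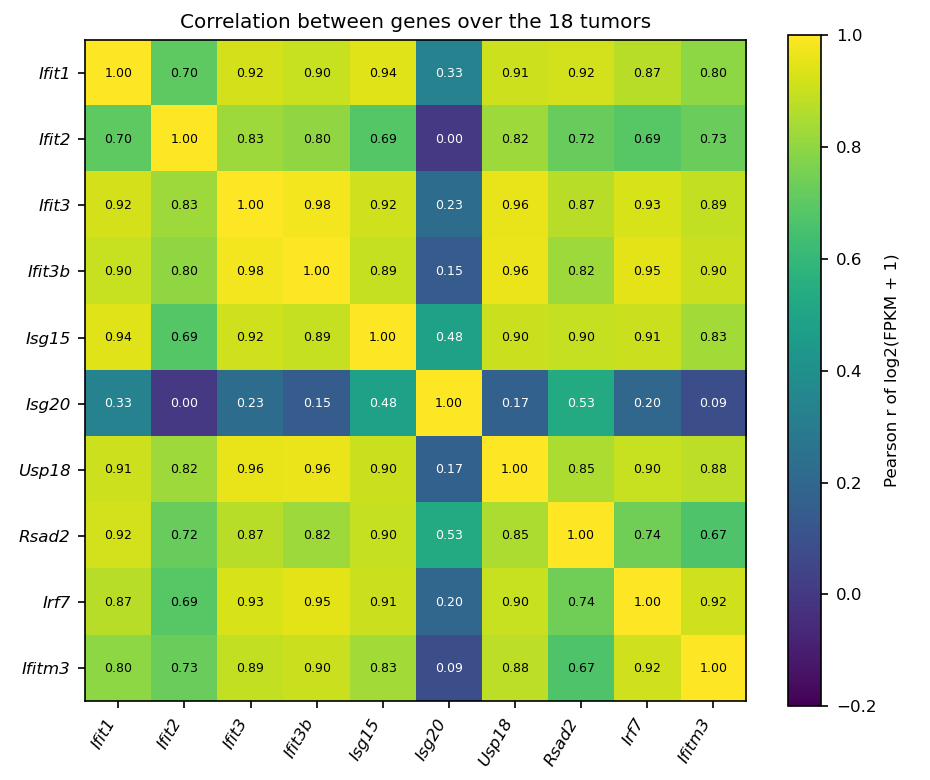
Pearson correlation of log2(FPKM + 1) between each pair of the 10 genes over the 18 tumors, as colour and number. The row of Isg20 stands apart, with values up to 0.53, and the other pairs lie between 0.67 and 0.98.

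The 10 genes outside the members whose log2 level was most like the members' mean standardized level were Dhx58 (r = 0.978), Rtp4 (0.965), Samd9l (0.961), Sp100 (0.960), Apol9b (0.952), Ddx60 (0.951), Apol9a (0.949), Cmpk2 (0.949), Phf11d (0.947) and Parp12 (0.946), each over 18 tumors. Of them, 9 stood in the list of other interferon-induced antiviral genes, which was chosen with earlier results of these data known, and Samd9l in none. Dhx58, which encodes the RNA sensor LGP2, ranged from 2.25 to 19.7 FPKM, and its r was 0.946 without the 2 tumors farthest from the median.

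The comparison of PS473@NKMOF-101-[Mn] with Free PS473 asks what the framework adds to the ribozyme. The log2 differences, PS473@NKMOF-101-[Mn] minus Free PS473, were positive for 9 of the 10 genes, with a median of 1.15 against -0.04 over all genes tested. The difference was 1.68 for Irf7 (95% confidence interval 0.58 to 2.79), 1.51 for Ifit3 (0.55 to 2.47), 1.42 for Usp18 (0.48 to 2.36) and 1.24 for Ifitm3 (0.68 to 1.79). It was 1.17 for Ifit1 (0.14 to 2.21), 1.14 for Isg15 (0.08 to 2.19), 1.12 for Ifit3b (0.41 to 1.83) and 0.52 for Ifit2 (0.20 to 0.84). For Rsad2 it was 0.78 (-0.16 to 1.72) and for Isg20 -0.10 (-0.84 to 0.65), and both intervals include 0. An unadjusted p under 0.05 with a higher level was found for 8 of the 10 members, all but Rsad2 and Isg20, against 2.11% of all genes tested. In 6 members, Ifit2, Ifit3, Ifit3b, Usp18, Irf7 and Ifitm3, all PS473@NKMOF-101-[Mn] tumors were above all Free PS473 tumors, which held for 2.34% of all genes tested. The members were chosen with earlier results of these data known and, apart from Isg20, move together. Counts of members are therefore not separate evidence. The smallest p was that of Ifitm3, and the adjusted p of the members lay between 0.781 and 0.996 (limma, Benjamini-Hochberg). With array weights, whose estimation stopped before it converged, Ifit3 and Ifitm3 passed the threshold. Ifit3 and Ifit3b taken as 1 gene gave a difference of 1.56 ± 0.45 (SE). An exact permutation test of 3 tumors against 3 can give no p below 0.1.

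**Figure D4:**
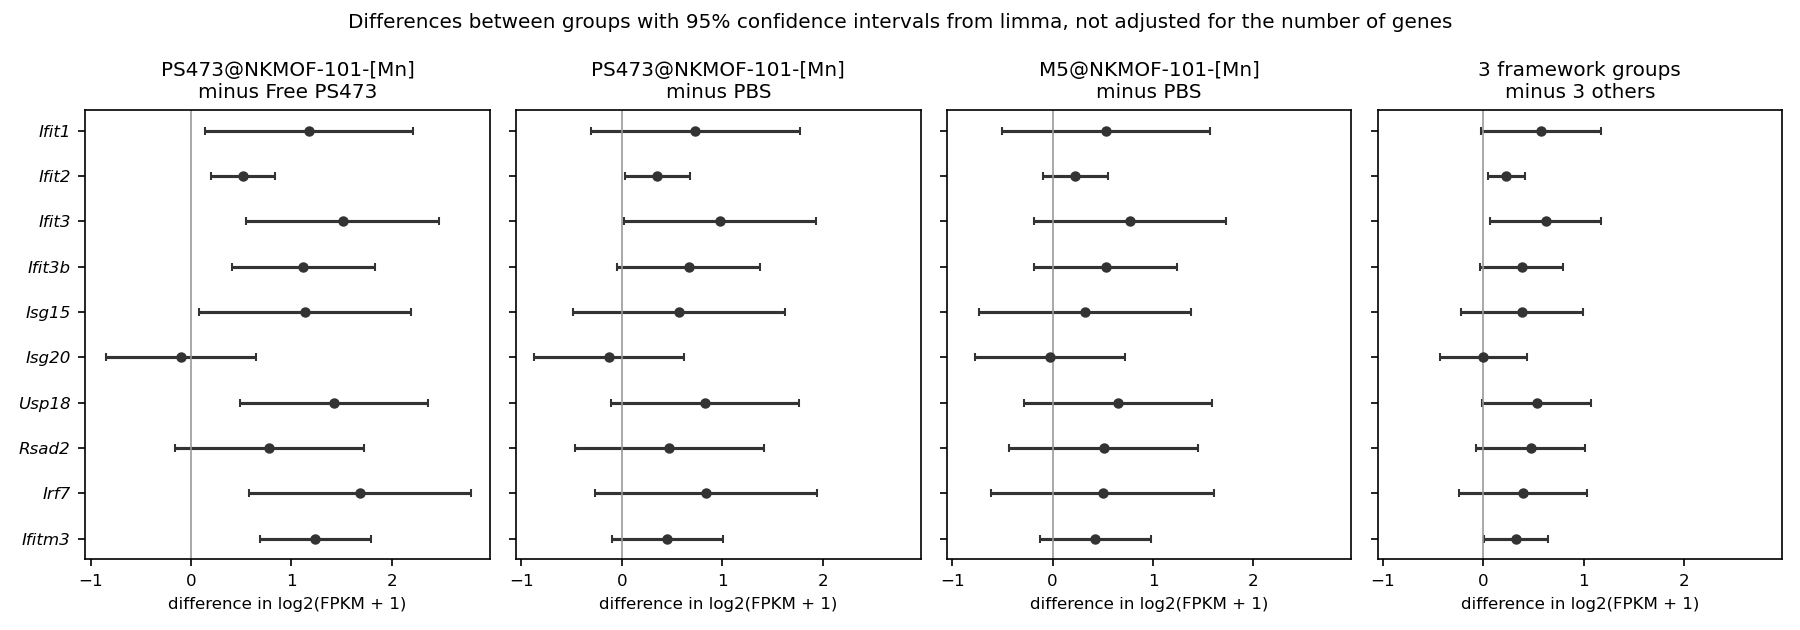
Differences in log2(FPKM + 1) of the 10 genes between groups (horizontal axes) with 95% confidence intervals from limma, not adjusted for the number of genes. In PS473@NKMOF-101-[Mn] minus Free PS473, 8 intervals lie above 0, whereas in M5@NKMOF-101-[Mn] minus PBS all 10 include 0.

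The size of these differences depended on 1 tumor in each group. Without PS473@NKMOF-101-[Mn] tumor 2, the members' median was 0.66, with 6 members higher at an unadjusted p under 0.05 (1.04% of all genes). Without Free PS473 tumor 2 it was 0.79, also with 6 members (2.91%). Without any of the other 4 tumors it lay between 1.29 and 1.45, with 8 or 9 members (1.36% to 2.87%). The difference of Ifit1 was 0.60 without PS473@NKMOF-101-[Mn] tumor 2 and 0.68 without Free PS473 tumor 2. That of Isg15 was 0.66 and 0.57, and that of Rsad2 0.29 and 0.44. Ifitm3 varied least in proportion, between 0.95 and 1.44. Irf7 lay between 1.09 and 2.04 and Ifit3 between 0.96 and 1.83. All members but Isg20 kept a positive difference whichever tumor was left out.

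**Figure D5:**
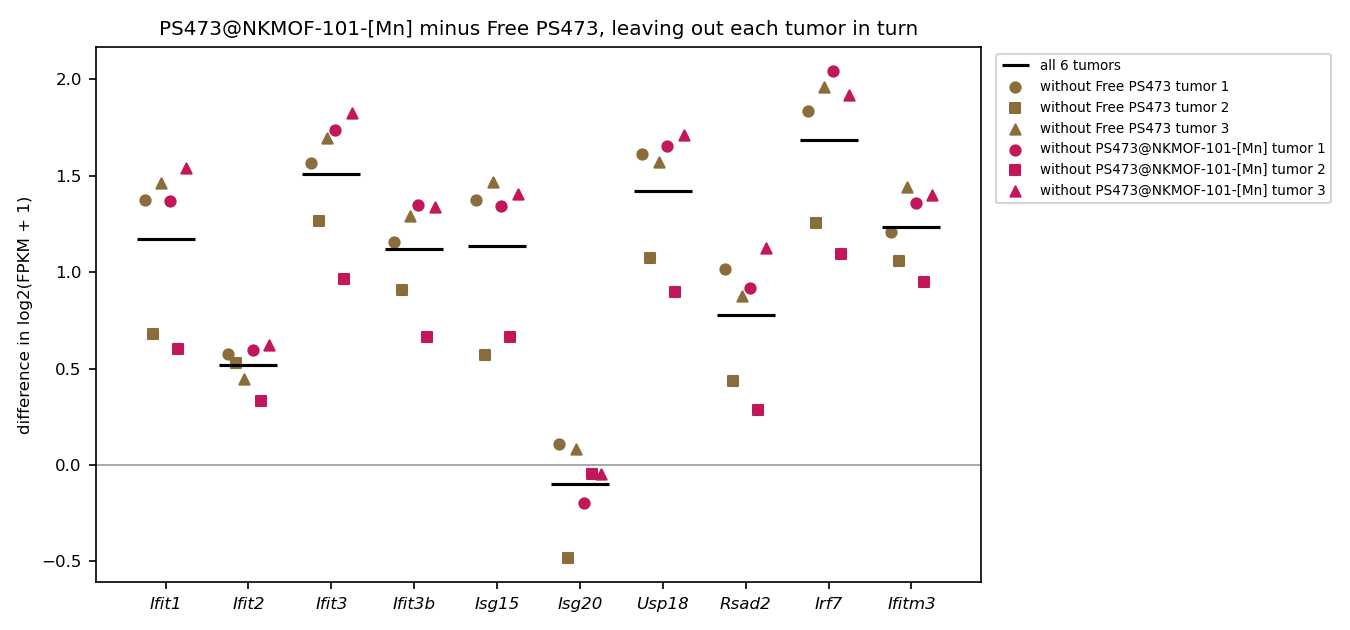
Difference in log2(FPKM + 1), PS473@NKMOF-101-[Mn] minus Free PS473, for each gene (vertical axis), with all 6 tumors (black bars) and without each tumor in turn (symbols). Squares, which leave out tumor 2 of either group, lie lowest for most genes; Isg20 lies between -0.48 and 0.11.

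Against PBS, which asks for the effect of each whole formulation, the differences were smaller. Free PS473 minus PBS was negative for all 10 genes, with a median of -0.49, but it was -0.78 for Ifitm3 (95% confidence interval -1.34 to -0.23) and its interval included 0 for the others. Ifitm3 was the 1 member at an unadjusted p under 0.05 and lower, with an adjusted p of 1.00 (limma), against 0.550% of all genes tested. Without PBS tumor 1 none was left, against 2.82% of genes. The median was -0.21 without Free PS473 tumor 2, where 4 members (Ifit1, Isg15, Isg20 and Rsad2) were positive, and -0.30 without PBS tumor 1. In 3 members, Ifit3b, Irf7 and Ifitm3, all Free PS473 tumors were below all PBS tumors, against 1.54% of all genes tested. PS473@CPs minus PBS had a median of 0.42, and 1 member was higher at an unadjusted p under 0.05, again Ifitm3, at 0.61 (0.06 to 1.16), against 0.898% of genes. Without PS473@CPs tumor 3 this median was 0.06. NKMOF-101-[Mn] minus PBS had a median of 0.00, from -0.39 for Isg20 to 0.40 for Ifit1, and 0 members reached an unadjusted p of 0.05 in the limma fit, against 1.46% of genes.

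M5@NKMOF-101-[Mn] minus PBS, the inactive ribozyme in the framework, was positive for 9 genes, with a median of 0.50. All M5@NKMOF-101-[Mn] tumors were above all PBS tumors in 4 members, Ifit1, Ifit3, Ifit3b and Usp18, against 4.75% of all genes tested. The largest difference was that of Ifit3, 0.77 (95% confidence interval -0.19 to 1.73). In the limma fit, with its spread shared by the 6 groups, 0 members were higher at an unadjusted p under 0.05, against 0.834% of genes. PS473@NKMOF-101-[Mn] minus PBS was positive for 9 genes, with a median of 0.62. Ifit2, at 0.35 (0.03 to 0.67), and Ifit3, at 0.98 (0.02 to 1.94), were the 2 members at an unadjusted p under 0.05, against 1.00% of genes, and Ifit3b, at 0.67 (-0.04 to 1.38), was the 1 member whose groups did not overlap, against 2.74%. Without PS473@NKMOF-101-[Mn] tumor 2 the median was 0.17 and 0 members remained at that p, against 1.29% of genes. The number was also 0 without PBS tumor 2 or 3 (0.469% and 1.98%) and 3 without PBS tumor 1 (1.62%). It was 4 and 5 without PS473@NKMOF-101-[Mn] tumors 1 and 3 (1.77% and 1.62%). The 5 comparisons with PBS share its 3 tumors.

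The active was set against the inactive ribozyme in the same framework. PS473@NKMOF-101-[Mn] minus M5@NKMOF-101-[Mn] had a median of 0.16, from -0.10 for Isg20 to 0.34 for Irf7 (95% confidence interval -0.77 to 1.45). Its direction rested on 1 tumor, since without PS473@NKMOF-101-[Mn] tumor 2 the median was -0.29 and all 10 members were negative. Without any of the other 5 tumors it lay between 0.10 and 0.42. For Ifitm3 it was 0.03 (-0.53 to 0.58) and for Ifit2 0.13 (-0.19 to 0.45). In the limma fit 0 members reached an unadjusted p of 0.05, against 0.591% of genes, and these intervals do not show that the formulations act alike, since differences of more than 2-fold lie within several of them. Against the empty framework, PS473@NKMOF-101-[Mn] was higher in all 10 genes, with a median difference of 0.58. Ifit3b, at 0.71 (0.00 to 1.43), was the 1 member higher at an unadjusted p under 0.05, against 0.502% of genes, and Ifit2 and Ifit3b were the 2 members in which all its tumors were above all NKMOF-101-[Mn] tumors, against 2.41%. Without PS473@NKMOF-101-[Mn] tumor 2 that median was 0.25 and 0 members reached that p, against 0.761% of genes. Against PS473@CPs, the other carrier of PS473, the median was 0.32, from -0.16 for Ifitm3 to 0.55 for Rsad2. Its direction too rested on 1 tumor, since without PS473@NKMOF-101-[Mn] tumor 2 the median was -0.18 and 7 members, all but Ifit2, Isg20 and Rsad2, were negative. Without PS473@CPs tumors 1, 2 and 3 it was 0.10, 0.16 and 0.63. The last had 1 member higher at an unadjusted p under 0.05, against 4.40% of genes. Here 0 members reached an unadjusted p of 0.05 in the limma fit, against 2.29% of genes.

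The 3 groups with the framework were on average higher than the 3 groups without it in all 10 genes, with a median difference of 0.39 (0.23 without PS473@NKMOF-101-[Mn] tumor 2), although for Isg20 the value was 0.00. An unadjusted p under 0.05 was found for 3 members, Ifit2 at 0.23 (95% confidence interval 0.04 to 0.41), Ifit3 at 0.62 (0.07 to 1.17) and Ifitm3 at 0.33 (0.01 to 0.65), against 2.93% of all genes tested. The number was lowest, at 1, when any 1 of 8 tumors was left out (1.77% to 3.37% of genes). PS473@NKMOF-101-[Mn] tumor 2 and Free PS473 tumor 2 were among these 8. At most it was 7, without PS473@CPs tumor 3 or PS473@NKMOF-101-[Mn] tumor 3, where the share of all genes was also higher, at 5.38% and 4.25%. The interaction, which asks whether adding PS473 went with a greater difference in the framework (against NKMOF-101-[Mn]) than without it (Free PS473 against PBS), was positive for all 10 genes, with a median of 1.18 (0.72 without PS473@NKMOF-101-[Mn] tumor 2). For 5 members, Ifit3, Ifit3b, Usp18, Irf7 and Ifitm3, the unadjusted p was under 0.05, against 0.680% of genes, and the interaction of Ifitm3 was 1.31 (0.52 to 2.09), with an adjusted p of 1.00 (limma). Their number was 1 without PBS tumor 1, Free PS473 tumor 2, NKMOF-101-[Mn] tumor 2 or PS473@NKMOF-101-[Mn] tumor 2 (0.332% to 1.07% of genes). It was between 3 and 6 without any other tumor of the 4 groups (0.348% to 1.41%).

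The other genes of the pathway were read from lists written from gene names. Of the enzymes that attach ISG15, Uba7 (the activating enzyme), Ube2l6 (the conjugating enzyme), Herc6 (the ligase in mouse) and Trim25 were tested, and 4 of 4 were higher in PS473@NKMOF-101-[Mn] than in Free PS473, 3 of them at an unadjusted p under 0.05, with a median difference of 0.99. Over all genes tested, 2.11% were higher at that p and the median was -0.04, and the counts and medians of all these lists stand beside those values. Ube2l6, the most abundant at 15.2 to 95.4 FPKM, gave 1.02 (adjusted p 0.960 in limma). Herc6 gave 0.96 and Uba7 1.17. Of 40 other interferon-induced antiviral genes tested, 40 were higher and 34 at an unadjusted p under 0.05, with a median of 0.96. The most abundant were Bst2 (tetherin, which holds virus particles at the cell surface), with a difference of 0.91, Ifi27 with 0.83 and Lgals3bp with 0.64. Of 20 genes listed as biased to interferon-gamma, 20 were higher and 17 at that p, with a median of 1.57. In this list the chemokine gene Cxcl10, at 92.3 to 288 FPKM, gave 0.37, the immunoproteasome gene Psmb8 1.48 and the GTPase gene Igtp 1.94. In macrophages the study read Cxcl10 beside Isg15 and Isg20, so the list is not exclusive to interferon-gamma. Sums of the antiviral and interferon-gamma lists were highest of all 18 tumors in PS473@NKMOF-101-[Mn] tumor 2, at 1563 and 1490 FPKM. The other tumors of its group were at 907 and 770 FPKM for the first list and 655 and 447 for the second. The counts were not repeated without that tumor, and genes that move together are not separate evidence. None of these genes passed an adjusted p of 0.05. In Free PS473 minus PBS, 39 of the 40 antiviral genes were lower, with a median of -0.47. Of these, 3 had an unadjusted p under 0.05 (0.550% of all genes). In PS473@NKMOF-101-[Mn] minus PBS, 39 were higher, 6 at that p (1.00%), with a median of 0.51. Against NKMOF-101-[Mn] 38 were higher, 4 at that p (0.502%), and against PS473@CPs and M5@NKMOF-101-[Mn] 36 each, 0 at that p. Of 20 genes in the interferon-gamma list, 1 reached that p against PBS (1.00%) and 0 against these other groups. In Free PS473 minus PBS all 20 were lower, 7 at that p (0.550%), with a median of -0.95. In M5@NKMOF-101-[Mn] minus PBS, 16 of them and 18 of the 40 antiviral genes lay wholly above PBS (4.75%). There 0 of either list reached that p. With the framework against without it, 17 of the 20 and 20 of the 40 were higher at that p (2.93%), with medians of 0.72 and 0.40.

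The lists of upstream genes had medians nearer to that of all genes. Of 10 genes of the interferon receptors and ISGF3, 7 were higher in PS473@NKMOF-101-[Mn] than in Free PS473, with a median of 0.07, and 2 had an unadjusted p under 0.05. Irf9, which encodes a part of ISGF3, gave 0.78, whereas the receptor gene Ifngr2 gave -0.08. The log2 sum of this list had a Pearson correlation of 0.889 with the members' mean level over the 18 tumors. It was 0.761 without the 2 tumors farthest from the median. Of 10 genes of nucleic acid sensing, 7 were higher, with a median of 0.11, and 2 had an unadjusted p under 0.05. The log2 sum of that list correlated with the members at 0.599, and at 0.142 without those 2 tumors. The most abundant, Unc93b1 (which carries Toll-like receptors to endosomes), the kinase gene Tbk1 and Irf3, gave 0.28, -0.02 and -0.04. Of the relatives of the IFIT and IFITM members, only Ifitm2 passed the filter, at 40.2 to 58.0 FPKM in all 18 tumors, and its difference was 0.05 (adjusted p 0.986 in limma). Ifitm1, with a mean of 0.960 FPKM, and Ifitm5, with 0.580, did not pass it.

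The motif was present in the promoter windows of 12 of 28 other interferon-induced antiviral genes with a window (42.9%) and 11 of 16 genes of the interferon-gamma list (68.8%), against 3.99% of all genes with a window. It was found in 11 of 20 interferon genes (55.0%) and 3 of 8 relatives of the IFIT and IFITM members (37.5%). It was found in 1 of 9 genes of the interferon receptors and ISGF3 (11.1%), 1 of 9 of nucleic acid sensing (11.1%) and 0 of 4 of ISG15 conjugation.

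The interferons themselves were at or near 0. Of 21 interferon genes, 12 were listed at 0 in every tumor and 0 passed the filter. Ifnb1 was above 0 in 7 tumors, at most 0.210 FPKM, in M5@NKMOF-101-[Mn] tumor 1. Ifna1, Ifna7, Ifna13, Ifnab, Ifne, Ifnk and Ifnz were above 0 in some tumors, at most 0.425 FPKM (Ifna13 in Free PS473 tumor 1). Ifng, the gene of interferon-gamma made by T and NK cells, was the one found in all 18 tumors, from 0.0809 FPKM in PS473@NKMOF-101-[Mn] tumor 3 to 1.38 FPKM in PS473@NKMOF-101-[Mn] tumor 2. The next highest was PS473@CPs tumor 2 at 1.20 FPKM. The tumor that was highest for 9 members was thus also the highest for Ifng, while PS473@CPs tumor 3, the next highest in the members' mean level, had 0.233 FPKM.

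Immune cell markers moved with the members in part. The sum of 13 T and NK cell markers, 5 of which averaged 1 FPKM or more, was 7.21 to 9.50 FPKM in PBS, 2.31 to 7.61 in Free PS473 and 5.42 to 17.7 in PS473@CPs tumors. It was 11.6 to 15.0 FPKM in NKMOF-101-[Mn], 11.5 to 15.3 in M5@NKMOF-101-[Mn] and 6.81 to 30.7 in PS473@NKMOF-101-[Mn] tumors, with the highest value in tumor 2 of the last group. Over the 18 tumors the log2 sum had a Pearson correlation of 0.712 with the members' mean level, and of 0.423 without the 2 tumors farthest from the median. The sum of 12 macrophage markers was 94.7 to 550 FPKM in Free PS473 and 154 to 282 in PS473@NKMOF-101-[Mn] tumors, and its correlation with the members was 0.279. The sum of the skin epithelium markers was 11.9 to 521 FPKM in Free PS473 and 12.5 to 459 in PS473@NKMOF-101-[Mn] tumors, with a correlation of 0.072. Of 6 markers of plasmacytoid dendritic cells, known as strong producers of type I interferon, 0 averaged 1 FPKM or more. The part of these cells in the members' levels was not tested.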

How the data were processed

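Whole-tumor poly(A) RNA sequencing of 18 tumors (6 groups of 3) was deposited by the authors as FPKM values for 41079 genes with 1 length per gene. The submitters' processing notes name build GRCm39; the aligner, the counting tool and the annotation are not given in the sources used here. Values were used by gene name only. Annotation and sequences came from GENCODE M21 (GRCm38) and RefSeq (GRCm38.p6).

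Tumors were grouped by their titles. Genes averaging 1 FPKM or more were fitted as log2(FPKM + 1) in 1 limma model of 6 group means with a trend in the prior variance (limma 3.58.1, R 4.3.3), with Benjamini-Hochberg adjustment over 12357 genes. A gene was called at an adjusted p under 0.05 with a difference above 2-fold. A pseudocount of 1 understates differences of low genes. Correlations and tables were made with Python 3.11.15 and numpy 2.4.6. Between 48.6% and 52.7% of low values were whole fragments (within 0.05 of a whole number), so no count model was used. The recovered depth, 17221000 to 28411000 fragments, limits the weakest genes. The labels do not say that each tumor came from a separate mouse, so p values measure the spread between these tumors. The procedure was tested on simulated data with independent noise for each gene, which does not bear on counts of members that move together. The labels give no batch.

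The members and gene lists were chosen with earlier results of these data known. Named are all members, the 3 most abundant genes of each pathway list, interferons above 0, the 10 genes most like the members and Cd274; 1 gene of these is not reported here. Alternatives were another pseudocount, other filters, quantile and upper-quartile scaling, separate fits, no trend, array weights, a replicate block, the sum of Ifit3 and Ifit3b and leaving out each tumor.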

Additional observations from a re-analysis of the deposited data

How the results depend on the processing

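In 6 of the comparisons (PS473@NKMOF-101-[Mn] against PBS or Free PS473, M5@NKMOF-101-[Mn] or Free PS473 against PBS, the framework and the interaction), 1047 of the members' log2 differences under the alternatives kept their direction and their side of the threshold and 33 turned sign, most of them for Isg20. In the other 5 comparisons, for which only leaving out a tumor was run on single members, signs turned for 10 members when PS473@NKMOF-101-[Mn] was set against the inactive ribozyme in the framework (Ifit1 from -0.36 to 0.58), 7 against PS473@CPs (Ifit3 from -0.13 to 0.92) and 2 against NKMOF-101-[Mn]. They also turned for 8 in NKMOF-101-[Mn] against PBS (median from -0.11 to 0.20) and 3 in PS473@CPs against PBS. With a pseudocount of 0.1, Isg20 was 0.017 in M5@NKMOF-101-[Mn] minus PBS. With quantile normalization it was 0.19 there, 0.21 in Free PS473 minus PBS and 0.12 in PS473@NKMOF-101-[Mn] minus PBS. Without a filter 4 genes, and none of the members, passed the F test. With the groups compared alone 1 gene was called in PS473@CPs against PBS. Array weights, whose estimation stopped before it converged and which gave Free PS473 tumor 1 a weight of 17.1, called 335 genes in Free PS473 against PBS and 122 in PS473@NKMOF-101-[Mn] against Free PS473. The latter included 2 members, Ifit3 at 1.36 (adjusted p 0.0236, limma) and Ifitm3 at 1.26 (adjusted p 0.00147, limma). In the F test the weights called 2310 genes, 6 members among them. Under these weights Free PS473 minus PBS was 0.036 for Ifit1, 0.12 for Isg15, 0.69 for Isg20 and 0.35 for Rsad2. Isg20 was 0.25 in M5@NKMOF-101-[Mn] minus PBS, 0.33 in PS473@NKMOF-101-[Mn] minus PBS, -0.017 for the framework and -0.31 for the interaction. The cause was not tested. With a single tumor left out, Free PS473 minus PBS ran from -0.73 to 0.056 for Ifit1, from -0.89 to 0.00080 for Isg15, from -0.55 to 0.035 for Rsad2 and from -0.32 to 0.36 for Isg20. Those of Ifit1, Isg15 and Rsad2 turned sign without Free PS473 replicate 2. Isg20 ran from -0.32 to 0.34 in M5@NKMOF-101-[Mn] minus PBS, from -0.42 to 0.24 in PS473@NKMOF-101-[Mn] minus PBS and from -0.48 to 0.11 in PS473@NKMOF-101-[Mn] minus Free PS473. It ran from -0.13 to 0.12 for the framework and from -0.089 to 0.59 for the interaction. Rsad2 in PS473@NKMOF-101-[Mn] minus PBS ran from -0.020 to 0.82, lowest without PS473@NKMOF-101-[Mn] replicate 2. The genes called in PS473@CPs against PBS ran from 0 to 1, the latter without PS473@CPs replicate 3. With the replicate number as a block, 0 members and 0 genes were called in every comparison, and the median difference in PS473@NKMOF-101-[Mn] minus Free PS473 was 1.15, as without it. Deviations of tumors with the same number had correlations from -0.73 to 0.724, and 18 of 45 were over 0.1. Tumors with different numbers were not compared in this way, so it does not tell whether the numbers pair the tumors. With 3 tumors in a group, depth limits Ifit3b and Isg20 most, at 45 and 61 fragments in their lowest tumors.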
